A study of Mus musculus with 21 samples.

Results

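Mouse nephron progenitors that had been kept as aggregates for 24 h in the GSK3 inhibitor BIO were compared with freshly sorted progenitors. The comparison takes the 3 arrays of aggregates labelled with 4 µM BIO for 24 h and nothing else, and the 3 arrays of fresh cells, which makes 6 of the 21 arrays of the study. It was made over all 18193 genes that the arrays measured. Its question is which genes lay past, at or short of the fresh level after a day with BIO, and for that the 3 arrays of aggregates kept for 24 h in DMSO are given beside them. BIO and DMSO aggregates were parallel cultures, compared here at 24 h only. Terms such as went past, stayed short, or a rise or fall in DMSO give positions against fresh and not a course in time.

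All cells came from kidneys of E16.5 embryos that carried the BAC transgene Six2GFPcre on a mixed strain background, and they were sorted by flow cytometry. Each sample held 40000 cells, per the labels' protocols. BIO aggregates were spun into a pellet and cultured for 24 h in DMEM with 10% fetal bovine serum and 4 µM BIO. DMSO aggregates had the same culture with an equal volume of DMSO, and fresh cells had no culture. The transgene is shared by every group, so GFP and Cre were present in the fresh cells too. A sort on Six2 enriches for cells in which that promoter had been active, and other cells may remain. RNA passed through a kit with 2 rounds of amplification. The arrays are called biological replicates, and no label ties them to separate litters, sorts or cultures. The p-values therefore cover no more than the differences among these arrays, some of which may be technical.

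In the cap mesenchyme of the embryonic kidney, Six2-positive progenitors either renew themselves or are induced by Wnt9b from the ureteric bud to form pretubular aggregates, renal vesicles and then nephrons. Canonical Wnt signals act by sparing beta-catenin from destruction, a step in which GSK3 takes part, so an inhibitor such as BIO raises beta-catenin without a Wnt ligand. Beta-catenin then works with TCF and LEF factors at target genes, many of which encode inhibitors of the pathway.

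The fresh arrays carried the genes that mark these progenitors. Six2 had signals of 8565 to 9270 and Crym of 6594 to 7491 on the fresh arrays, while the endothelial gene Tie1 was below background there. Genes of the interstitial stroma were also present in fresh cells, with Col1a2 at 3793 to 4292 and Foxd1 at 2084 to 2126. In a bulk sample, fewer cells of a type and less RNA per cell cannot be told apart. Median deposited signals were 87.2 to 93.2 on the BIO arrays and 103 to 104 on the fresh arrays, and the share of genes above background was 78.8 to 79.6% with BIO and 76 to 77.6% in fresh cells. The 3' beta-actin control read 2669 to 5410 on the BIO arrays and 7978 to 11149 on the fresh arrays, with no overlap. The Gapdh 3' over 5' ratio was 11.4 to 15.2 with BIO and 8.59 to 10.4 in fresh cells. For beta-actin that ratio was 15.5 to 19.6 with BIO and 7.51 to 15.1 in fresh cells. On the DMSO aggregate arrays the 3' beta-actin control read 7700 to 12586. Their ratios were 7.87 to 11.3 for beta-actin and 13.6 to 15.4 for Gapdh.

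After 24 h with BIO, 6129 of 18193 genes differed from fresh cells (33.7%). Of these 3976 were higher (21.9%) and 2153 lower (11.8%). At least 2-fold changes numbered 1939 (10.7%), with 1125 higher (6.18%) and 814 lower (4.47%), and 16 genes rose and 28 fell at least 16-fold. The split depended on the scaling. The deposited scaling gave 2549 higher and 2658 lower, and centring every array at its own median gave 4502 and 1751. The median difference over all genes was 0.18 on the log2 scale, against 0.04 and 0.23 under those scalings, so small rises should be read against that shift. With the beta-actin control as a covariate 2215 genes changed (1042 higher, 1173 lower), and with the Gapdh ratio 3804 (2125 higher, 1679 lower). The beta-actin control was at least 6344 on every array outside the BIO aggregates at 24 h, so that covariate is confounded with the group compared. It can take up part of the group difference and widen its SE. A call lost with it therefore does not show that the difference was absent. Whether BIO lowered beta-actin itself was not tested. The BIO and fresh arrays did not overlap in 8572 genes (47.1%), of which 5899 also passed (32.4%).

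Signals below are quantile-normalised. Differences are BIO aggregates minus fresh on the log2(signal + 1) scale, ± their SE from the limma fit (n = 3 arrays in each group). The fit pools the spread over all 7 groups of the study. A gene that varied in another group can thus have a wide SE even where the compared arrays lie close. Adjusted p-values are by Benjamini-Hochberg over all genes. List counts below are at an adjusted p under 0.05 unless stated, where 21.9% of all genes were higher and 11.8% lower than fresh. Background was set at a signal of 41.8, the 95th percentile over 27 probe sets for bacterial control RNA. Where a group mean lay below it, the difference is given as at least so many fold, with background in place of lower signals.

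Most genes of the Wnt list lay above the fresh level in BIO aggregates, and most that did so were below it in DMSO. Of 18 measured Wnt targets and feedback genes 12 rose and 1 fell, with a median difference of 1.06, while over all genes the median was 0.18. Of the 12, 9 went past the fresh level from a fall in DMSO, as did 236 of all 18193 genes, while another 241 went past it from a rise. Those 9 were Axin2, Lef1, Sp5, Notum, Nkd2, Wif1, Tnfrsf19, Znrf3 and Apcdd1. For Wif1 the DMSO and fresh means were both below background, so its fall in DMSO is not a measured one. With the beta-actin covariate 6 genes of the list rose and 0 fell against fresh.

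Notum, a secreted enzyme that removes the lipid from Wnt proteins, had the largest rise above background in both groups. Its signals were 3842, 4432 and 3165 in BIO aggregates, 145, 109 and 105 in DMSO aggregates, and 218, 157 and 189 in fresh cells. Every BIO array lay above every fresh array, at 20.2-fold (4.33 ± 0.18, adjusted p = 1.49e-10). Lef1, a DNA-binding partner of beta-catenin, read 2361, 2517 and 1741 with BIO, 148, 219 and 231 with DMSO and 368, 388 and 260 in fresh cells. It was 6.51-fold higher with BIO than in fresh cells (2.70 ± 0.17, adjusted p = 1.37e-08), again without overlap.

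Axin2, part of the complex that destroys beta-catenin and a feedback target of the pathway, had signals of 3733, 3798 and 3056 in BIO aggregates, 323, 356 and 375 in DMSO aggregates and 1131, 1185 and 1111 in fresh cells. The fresh cells were thus between the 2 cultures, and the rise over fresh was 3.07-fold (1.62 ± 0.17, adjusted p = 2.54e-06). With the mean of both Axin2 probe sets the difference was -0.04, and the other probe set did not pass. Tnfrsf19, a receptor of the TNF family, showed the same order, with 3166, 3606 and 3116 in BIO aggregates, 74.4, 90.5 and 138 in DMSO aggregates and 1343, 1324 and 1335 in fresh cells (1.30 ± 0.17, adjusted p = 1.83e-05). Apcdd1, a membrane inhibitor of Wnt signalling, rose by 1.45 ± 0.19 (adjusted p = 2.81e-05). Wif1, which binds Wnt ligands outside the cell, had 238, 374 and 174 in BIO aggregates and was below background in both other groups, which makes it at least 5.84-fold higher than fresh (adjusted p = 2.04e-06).

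Sp5, a zinc finger factor induced directly by beta-catenin, had 2063, 2208 and 1660 in BIO aggregates. Only the third of the DMSO arrays came above background (20.7, 6.19 and 48.8), and fresh cells read 296, 269 and 258. The BIO arrays were 7.15-fold above the fresh arrays with no overlap (2.84 ± 0.46, adjusted p = 0.000191), and with the beta-actin covariate the difference was 1.85 and did not pass. Its promoter is shown because it is the only one in the Wnt list with the TCF/LEF motif searched here. That motif was CTTTGAT or its reverse complement ATCAAAG, in the 250 bases before the annotated start, on both strands. It occurred in 1 of the 10 Wnt list genes with a promoter in the RefSeq table (GRCm38.p6) and in 385 of 14453 promoters of all tested genes (2.66%). The match starts 104 bases before the gene's start and is in capitals, in the window chr2:70474673-70474922 on the plus strand.
Sp5 promoter: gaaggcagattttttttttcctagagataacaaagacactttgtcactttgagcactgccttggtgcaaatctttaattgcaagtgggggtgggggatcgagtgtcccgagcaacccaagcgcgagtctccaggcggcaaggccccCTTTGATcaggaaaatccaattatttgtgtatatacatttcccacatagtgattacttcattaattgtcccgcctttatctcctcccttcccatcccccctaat

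Nkd1, an inhibitor of Dishevelled, and Bambi, a decoy receptor of the BMP and TGF-beta pathways, rose without a passing difference between DMSO and fresh. Nkd1 had 1270, 1592 and 1760 in BIO aggregates and 706, 804 and 809 in fresh cells (0.98 ± 0.13, adjusted p = 3.79e-05), and Bambi rose by 1.14 ± 0.17 (adjusted p = 9.43e-05). Ccnd1, the cyclin of early G1, was the member that fell, at 732, 1206 and 1057 with BIO, 858, 834 and 528 with DMSO and 2336, 2292 and 2657 in fresh cells (-1.31 ± 0.21, adjusted p = 0.000184). Its 2 cultured groups overlapped and both lay below every fresh array. Lgr5, Dkk1, Kremen1, Sp8 and Cdx1 did not pass.

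**Figure D1:**
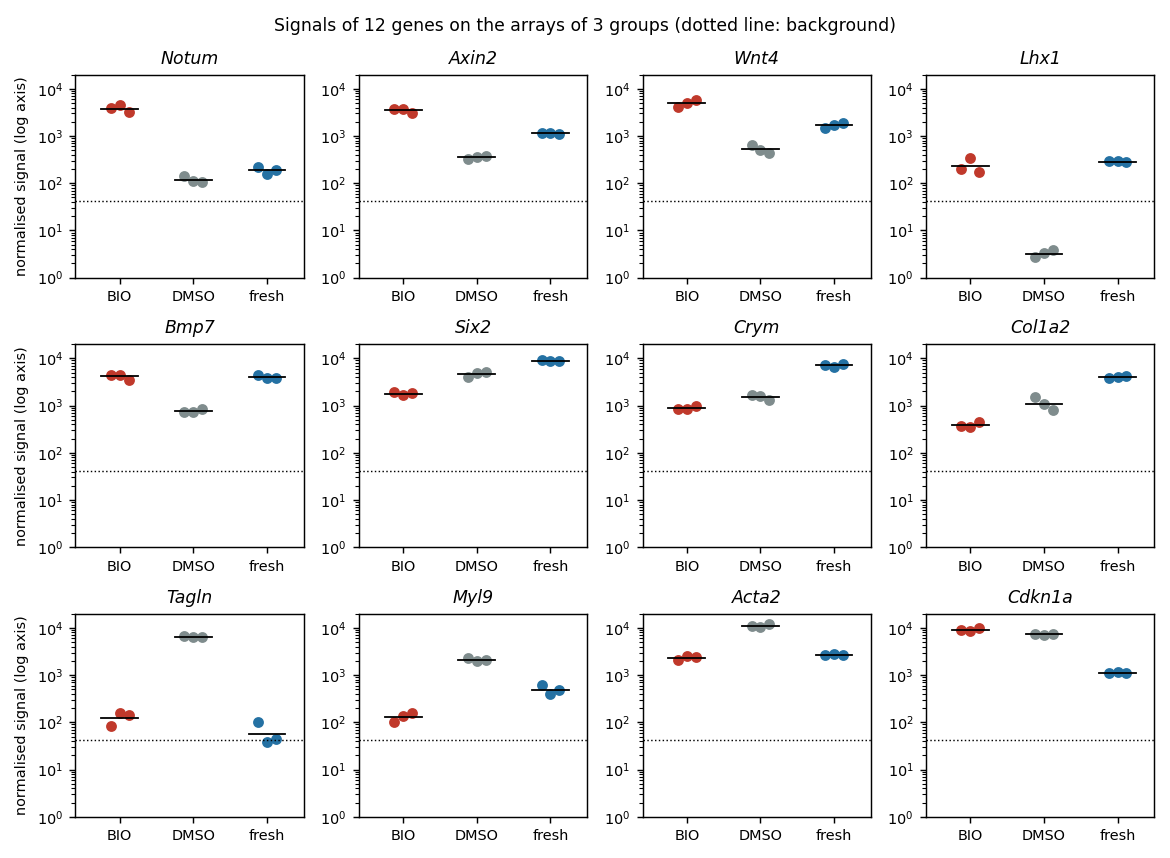
Normalised signals of 12 genes (log axis) on the 3 arrays each of BIO aggregates, DMSO aggregates and fresh cells. Points are arrays, bars are group means of log2 values and the dotted line is the background of 41.8. Notum, Axin2 and Wnt4 with BIO lie above fresh, Lhx1 and Bmp7 lie beside it, Six2, Crym and Col1a2 lie below it, and Cdkn1a is above fresh in both cultures.

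Genes of the pretubular aggregate and renal vesicle, the structures that progenitors form on induction, were higher than fresh more often than lower with BIO. Of 18 measured members 7 rose and 0 fell against fresh (median 0.60). In DMSO aggregates 2 of the 18 were higher and 10 lower than fresh, against 18.4% and 14.5% of all genes in that comparison (32.9% in all). With the beta-actin covariate 5 rose with BIO, with the mean of all probe sets of a gene 6 rose and 2 fell. At the deposited scaling 7 rose and 1 fell, and in a fit to the arrays of the 3 groups alone 9 and 0. The comparisons share the fresh arrays, so their values are given side by side only.

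Wnt4, the ligand through which induced progenitors become epithelial, had 4189, 4877 and 5764 in BIO aggregates, 653, 501 and 437 in DMSO aggregates and 1450, 1713 and 1876 in fresh cells. BIO arrays were all above fresh arrays and DMSO arrays all below, and the rise over fresh was 2.93-fold (1.55 ± 0.18, adjusted p = 6.29e-06). Cdh4, a cadherin, and C1qtnf12, a secreted C1q-related protein, also went past fresh, by 0.48 (adjusted p = 0.00899) and 0.90 (adjusted p = 6.79e-05). Jag1, a Notch ligand, had 6110, 6836 and 5361 with BIO, 1439, 2300 and 3110 with DMSO and 1864, 1473 and 1299 in fresh cells, where the last 2 groups overlapped. It was 3.97-fold above fresh (1.99 ± 0.21, adjusted p = 2.59e-06).

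Lhx1, a LIM homeobox factor of the renal vesicle, was placed at the fresh level. Its signals were 198, 345 and 177 with BIO, 2.74, 3.27 and 3.8 with DMSO and 289, 292 and 280 in fresh cells, where BIO and fresh overlap. The difference from fresh was -0.32 ± 0.32 (adjusted p = 0.475), but with the mean of both its probe sets it was -0.89 and passed as lower. Pax8, a paired-box factor of early nephrons, had 832, 1004 and 780 with BIO, 381, 368 and 369 with DMSO and 1018, 974 and 866 in fresh cells (95% interval of BIO minus fresh -0.37 to 0.11). Bmp2 and Emx2 were placed there as well, with intervals of -0.16 to 0.42 and -0.15 to 0.98. Cxcr4, a chemokine receptor, read 2255, 2307 and 1629 in BIO aggregates and 787, 686 and 583 in fresh cells, and did not pass despite the gap (1.58 ± 0.71, adjusted p = 0.0994). Fgf8, a ligand that nascent nephrons need, passed with both group means below background (adjusted p = 0.00182), so no fold is given, and did not pass with the beta-actin covariate.

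Progenitor genes were mostly below the fresh level, but not as one block. Of 20 measured members 2 rose and 11 fell (median -0.86), with 0 and 13 at the deposited scaling. The counts were 0 and 10 with the beta-actin covariate and 0 and 11 with the Gapdh covariate. In a fit to the arrays of the 3 groups alone they were 1 and 13. In DMSO aggregates 2 were higher and 14 lower than fresh. With BIO 3 of the 20 went past the fresh level, 4 were placed at it and 2 stayed short of it. Six2, which keeps progenitors from differentiating, had 1906, 1675 and 1804 in BIO aggregates, 4056, 4830 and 5163 in DMSO aggregates and 9270, 8752 and 8565 in fresh cells. The 3 groups did not overlap, and BIO arrays were 4.94-fold below fresh (-2.30 ± 0.12, adjusted p = 1.69e-09). Cited1, a transcriptional cofactor found in the least committed cap cells, was below background with BIO and DMSO and read 201, 114 and 116 in fresh cells, at least 3.26-fold lower with BIO (adjusted p = 3.33e-07).

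Crym, which encodes the thyroid hormone binding protein mu-crystallin, had 841, 860 and 973 with BIO, 1673, 1560 and 1290 with DMSO and 7236, 6594 and 7491 in fresh cells. Like Six2 and Wt1, the zinc finger factor needed for kidney formation, it was further from fresh with BIO than with DMSO (-2.99 ± 0.15, adjusted p = 7.77e-10). Osr1 and Meox1, transcription factors of early mesenchyme, were below background with BIO and at least 8.43-fold (adjusted p = 0.00024) and at least 14.3-fold (adjusted p = 1.59e-06) below fresh, without a passing difference between DMSO and fresh. Osr1 was uneven with BIO, at 34.9, 7.5 and 59.3, and its fitted difference, which rests on signal below background and gives no size, was -3.94, or -3.12 without the second of these arrays and -4.54 without the third. With the beta-actin covariate it did not pass (-1.12).

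Other progenitor genes were nearer to fresh with BIO than with DMSO. Fgf20, a ligand for progenitor survival, had 295, 265 and 235 in BIO aggregates, 10.3, 21.7 and 8.21 in DMSO aggregates and 242, 220 and 244 in fresh cells. BIO and fresh arrays overlapped (95% interval -0.55 to 0.88). Sall1, a zinc finger factor of the cap, read 4784, 4893 and 5335 with BIO, 1321, 1618 and 1591 with DMSO and 5860, 6292 and 5245 in fresh cells (interval -0.48 to 0.06). Uncx and Hoxa11, both homeobox genes, were placed at the fresh level too. Eya1, a cofactor of Six2, stayed short of it, with 4459, 4274 and 3732 with BIO, 1863, 2154 and 2128 with DMSO and 7708, 8279 and 7743 in fresh cells (-0.93 ± 0.14, adjusted p = 0.000125). Itga8, the integrin that answers the ureteric bud's matrix, did likewise (-0.69 ± 0.12, adjusted p = 0.000265). Gdnf, the ligand for Ret on the ureteric bud, was 1653, 1760 and 1666 with BIO and 2817, 2859 and 2662 in fresh cells, which did not pass (-0.71 ± 0.39, adjusted p = 0.171).

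Stromal genes fell in nearly the whole list. Of 16 measured interstitial stroma genes 0 rose and 15 fell (median -1.48), and Smoc2 was the exception. The sum of their signals was 12313 to 13151 on the BIO arrays, 31871 to 32589 on the DMSO arrays and 33034 to 34512 on the fresh arrays. Without any 1 array 14 to 16 fell, with the beta-actin covariate 13 and with the mean of all probe sets of a gene 10. Col1a2, a chain of type I collagen, had 364, 352 and 454 in BIO aggregates, 1500, 1056 and 805 in DMSO aggregates and 3793, 3949 and 4292 in fresh cells, 10.3-fold below fresh without overlap (-3.37 ± 0.20, adjusted p = 6.69e-09). Foxd1, a forkhead factor that marks precursors of the stroma, went past fresh from a rise in DMSO, with 883, 890 and 1096 in BIO aggregates, 5060, 4510 and 4635 in DMSO aggregates and 2084, 2097 and 2126 in fresh cells (-1.14 ± 0.15, adjusted p = 2.08e-05). The matrix gene Dcn, Pdgfra and Pdgfrb, receptors for PDGF, and Col3a1 also fell, by 2.60, 1.88, 1.33 and 2.31 on the log2 scale. With the mean of both its probe sets Dcn differed by -0.77 and did not pass.

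Podocyte genes included 0 that rose and 5 that fell among 7 measured (median -1.13), though Nphs1, the slit diaphragm gene that defines podocytes, did not pass. With the mean of all probe sets 2 fell (median -0.28), and with the beta-actin covariate 3. Tcf21, which fell, is in both the podocyte and the stromal list. Its other probe set passed as higher than fresh, and with the mean of both the difference was -0.24 and did not pass. Foxc2, a forkhead factor of developing podocytes, had 250, 191 and 210 with BIO, 2329, 2270 and 2137 with DMSO and 1536, 1233 and 1707 in fresh cells, 6.83-fold below fresh (-2.77 ± 0.29, adjusted p = 2.65e-06). Lists for other cell types had few members that passed, where over all genes 21.9% were higher and 11.8% lower. Against fresh, 0 of 9 proximal tubule genes rose and 1 fell, 1 and 1 of 10 in the loop of Henle and distal tubule, 3 and 1 of 13 in the ureteric bud and collecting duct, 0 and 0 of 11 in endothelium, 1 and 1 of 12 in leukocytes and macrophages, and 0 and 1 of 6 in erythroid cells, all by limma. At an unadjusted p under 0.05 endothelium had 1 higher and 2 lower, and the proximal tubule 1 and 1. The proximal gene was Cubn, which did not pass without the first or second fresh array or the second or the third BIO array (-2.52, -2.96, -2.93 and -2.57), nor with the mean of its probe sets or the beta-actin covariate (-1.63 and -5.15). The loop gene that rose was Wfdc2 (0.78), which did not pass without the second or the third fresh array or the second or the third BIO array (0.68, 0.67, 0.70 and 0.78), nor with either covariate. At the deposited scaling the ureteric count was 1 and 2, that of the loop 0 and 2, and that of endothelium 0 and 2. With the beta-actin covariate the counts were 0 and 0 in the ureteric list, 0 and 1 in the loop and leukocyte lists and 1 and 0 in the proximal list. Alas2, the erythroid enzyme of haem synthesis, was below background with BIO and with DMSO and read 166, 166 and 190 in fresh cells (at least 4.08-fold lower with BIO, adjusted p = 5.49e-06). Csf1r, the macrophage growth factor receptor, had 287, 322 and 287 with BIO and 899, 671 and 741 in fresh cells (-1.36 ± 0.17, adjusted p = 1.44e-05). The summed signal of the leukocyte list was 1317 to 1949 with BIO and 1819 to 2187 in fresh cells, and its part in these differences was not tested.

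Contractile genes were mostly above the fresh level in DMSO aggregates and not in BIO aggregates. These genes are controlled by serum response factor. BIO and DMSO aggregates were cultured in the same medium with serum, and the part of serum in these differences was not tested. Of 16 measured members 1 rose and 6 fell against fresh (median -0.17), or 2 and 4 when every array was centred at its own median. In DMSO aggregates 13 were higher and 1 lower than fresh, with a median of 2.21. With BIO 5 were placed at the fresh level, 3 past it, 1 short of it and 4 undecided. Acta2, smooth muscle actin, had 2110, 2493 and 2425 in BIO aggregates, 11064, 10260 and 11973 in DMSO aggregates and 2690, 2786 and 2597 in fresh cells, with no overlap but no passing difference from fresh (-0.20 ± 0.09, adjusted p = 0.109). Vcl, the focal adhesion protein vinculin, read 4744, 4984 and 5243 with BIO, 14271, 15385 and 15098 with DMSO and 4693, 4873 and 3971 in fresh cells, where BIO and fresh overlapped (95% interval -0.09 to 0.39). Flna, Tpm1 and Actn1, which cross-link or line actin filaments, were also at the fresh level.

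Myl9, a myosin light chain, went past it. Its signals were 99.2, 135 and 157 in BIO aggregates, 2264, 1990 and 2063 in DMSO aggregates and 601, 390 and 485 in fresh cells, so BIO and DMSO lay on opposite sides of fresh (-1.91 ± 0.20, adjusted p = 3.02e-06). Cnn2, a calponin, had 680, 750 and 720 with BIO, 6530, 6077 and 6138 with DMSO and 1105, 1314 and 1373 in fresh cells (-0.81 ± 0.15, adjusted p = 0.000748). Tagln, the actin-binding protein transgelin, had 83.3, 159 and 141 with BIO, 6681, 6304 and 6445 with DMSO and 101, 39.2 and 44.8 in fresh cells, where BIO and fresh overlap. Its difference from fresh passed (1.12 ± 0.31, adjusted p = 0.011) but not without the second fresh, the third fresh or the second BIO array, at 0.86, 0.95 and 0.93. It did not pass with either covariate (1.05 and 1.12) or in a fit to the arrays of the 3 groups alone. Tpm2, a tropomyosin, and Mylk, the myosin light chain kinase, fell by 2.09 and 1.87 (adjusted p = 6.67e-08 and 1.9e-07). Srf itself read 1545, 1504 and 1313 with BIO and 1896, 1685 and 1686 in fresh cells (-0.27 ± 0.09, adjusted p = 0.0325). The 3' beta-actin control was lower with BIO than in fresh cells as given above, and with it as a covariate 1 contractile gene rose and 4 fell. Beta-actin is itself a cytoskeletal gene, so this covariate may take up part of the difference in this list.

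Promoters are shown for the contractile genes described here whose 250 bases before the start hold a CArG box, the site that serum response factor binds. A CArG box was found on either strand in 5 of the 14 contractile promoters in the table (35.7%). It was found in 0 of 10 Wnt list promoters and in 175 of 14453 promoters of all tested genes (1.21%). The list was drawn up as serum response and contractile genes and includes Srf. A high share is therefore built into the list and is not a result of these data. Capitals mark the matches, which start 161 bases before the gene for Myl9, 56 for Cnn2 and 227 for Vcl, while the Srf promoter has 2, the first 82 bases before. The windows are chr2:156775214-156775463 on the plus strand for Myl9, chr10:79988350-79988599 on the plus strand for Cnn2, chr14:20929148-20929397 on the plus strand for Vcl and chr17:46556163-46556412 on the minus strand for Srf (RefSeq, GRCm38.p6). The remaining match was in Acta1, a gene that did not pass against fresh. No binding was measured in these cells.
Myl9 promoter: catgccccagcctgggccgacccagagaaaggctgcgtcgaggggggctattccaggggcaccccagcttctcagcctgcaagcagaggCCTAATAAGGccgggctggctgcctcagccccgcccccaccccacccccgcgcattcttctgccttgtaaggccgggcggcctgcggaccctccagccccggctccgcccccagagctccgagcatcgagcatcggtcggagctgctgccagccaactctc
Cnn2 promoter: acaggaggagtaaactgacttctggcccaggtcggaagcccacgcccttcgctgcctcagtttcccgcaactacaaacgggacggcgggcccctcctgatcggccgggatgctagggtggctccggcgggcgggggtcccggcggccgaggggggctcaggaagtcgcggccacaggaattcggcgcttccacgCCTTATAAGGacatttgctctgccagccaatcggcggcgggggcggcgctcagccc
Vcl promoter: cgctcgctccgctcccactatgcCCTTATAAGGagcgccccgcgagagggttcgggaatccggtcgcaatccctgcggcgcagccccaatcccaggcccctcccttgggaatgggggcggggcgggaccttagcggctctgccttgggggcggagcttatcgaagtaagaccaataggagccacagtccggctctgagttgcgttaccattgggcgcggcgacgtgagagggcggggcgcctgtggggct
Srf promoter: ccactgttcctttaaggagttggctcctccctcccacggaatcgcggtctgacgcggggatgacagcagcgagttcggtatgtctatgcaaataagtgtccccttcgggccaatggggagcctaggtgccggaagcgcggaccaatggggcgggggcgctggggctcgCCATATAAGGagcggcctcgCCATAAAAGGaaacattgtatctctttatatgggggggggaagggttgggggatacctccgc

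Among immediate early genes 4 of 15 rose and 6 fell against fresh (median -0.22), while 9 were higher and 2 lower in DMSO aggregates. The counts were 2 and 4 with the beta-actin covariate. Atf3, a stress-induced factor, had 787, 755 and 727 with BIO, 1276, 1279 and 1626 with DMSO and 102, 60.6 and 131 in fresh cells. With BIO it was below DMSO but above fresh (3.01 ± 0.22, adjusted p = 6.73e-08). Fos went the other way, at 2358, 1769 and 2386 with BIO, 6997, 6754 and 6210 with DMSO and 8023, 8205 and 8068 in fresh cells (-1.91 ± 0.17, adjusted p = 5.58e-07). Fosb fell by 2.57 and Fosl1, a Fos-related factor, rose by 2.47 (adjusted p = 3.32e-07 and 4.61e-06), with no passing difference between BIO and DMSO. Of 13 mesenchymal regulators and matrix genes 3 rose and 5 fell (median -0.34). The counts were 1 and 5 at the deposited scaling and 0 and 3 with the beta-actin covariate. Over all genes 21.9% were higher and 11.8% lower, so the share that rose was near that of all genes. Fn1, fibronectin, read 2295, 2115 and 2200 with BIO, 9282, 10421 and 10440 with DMSO and 2723, 2539 and 2240 in fresh cells, with BIO and fresh overlapping (interval -0.40 to 0.04). Snai2 and Zeb2, repressors of epithelial genes, fell by 1.48 and 2.02, Cdh11, a mesenchymal cadherin, fell by 1.34, and Twist1 rose by 1.54 ± 0.28 (adjusted p = 0.000581), but did not pass with the beta-actin covariate (0.98).

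Epithelial junction and keratin genes had 6 of 16 higher and 1 lower (median 0.25), and 5 and 2 with a median of -0.01 at the deposited scaling. It was 2 and 2 with the beta-actin covariate, and 3 and 1 with the Gapdh covariate. Pkp2, a desmosome plaque protein, had 2233, 1950 and 2407 with BIO, 6950, 6879 and 7559 with DMSO and 675, 592 and 533 in fresh cells (1.87 ± 0.13, adjusted p = 2.73e-08). Cldn1, a tight junction claudin, was below background with BIO at 27.3, 25.7 and 7.49, and read 2400, 2505 and 2200 with DMSO and 240, 175 and 159 in fresh cells, at least 4.42-fold below fresh (adjusted p = 1.46e-05). None of its 3 other probe sets passed, and with the mean of all of them the difference was -0.55 and did not pass. Cdh1, the epithelial cadherin that defines tubules, did not pass.

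Several genes were higher than fresh in both cultures. Of 9 measured p53 targets 8 rose with BIO and 0 fell (median 1.53), and in DMSO aggregates 8 were higher and 0 lower than fresh. There were 7 that rose with the beta-actin covariate. Cdkn1a, the inhibitor of cyclin-dependent kinases p21, had 8853, 8771 and 9800 with BIO, 7504, 7076 and 7497 with DMSO and 1099, 1133 and 1124 in fresh cells, 8.16-fold above fresh (3.03 ± 0.11, adjusted p = 3.87e-11). Ccng1 read 13081, 12514 and 12614 with BIO, 11400, 12957 and 13450 with DMSO and 4419, 3755 and 4263 in fresh cells, so the 2 cultures overlapped and both lay above fresh (1.62 ± 0.09, adjusted p = 3.21e-09). Perp and Zmat3, targets linked to cell death and RNA control, rose by 2.60 and 1.71.

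The heat shock and unfolded protein list had 5 of 14 higher and 1 lower (median 0.24), or 8 and 1 when arrays were centred on their medians and 6 and 3 with the mean of all probe sets. The members that rose furthest were Asns, asparagine synthetase, Trib3 and Ddit3, all targets of the amino acid stress factor ATF4, and the chaperones Hspa5 and Dnajb1 did not pass. Asns had 7324, 8764 and 6793 with BIO, 6043, 5952 and 5777 with DMSO and 1108, 1127 and 1041 in fresh cells, 6.94-fold above fresh (2.80 ± 0.12, adjusted p = 1.04e-10). Trib3 rose by 1.79 ± 0.13 (adjusted p = 3.86e-08). Ddit3 rose by 1.22 ± 0.20 (adjusted p = 0.000182), and with the mean of its 2 probe sets the difference was -0.95, the other probe set having passed in the opposite direction.

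Cell cycle genes rose in 7 of 20 and fell in 1 (median 0.14), and 1 rose and 0 fell with the beta-actin covariate and 4 and 0 with the Gapdh covariate. Cdk1, the mitotic kinase, had 5049, 5381 and 3888 with BIO and 2676, 2508 and 2507 in fresh cells (0.88 ± 0.14, adjusted p = 0.000119), but did not pass with the beta-actin covariate (0.62), and Ccne2, a cyclin of S phase entry, rose by 1.34 ± 0.17 (adjusted p = 1.82e-05). Tyms and Aurka rose by 0.82 and 0.71, and with the mean of all their probe sets the differences were -0.49 and -0.29. Neither passed with the beta-actin covariate (0.67 and 0.24). For the cell cycle list and those that follow, the shares over all genes were 21.9% higher and 11.8% lower. Sterol synthesis genes had 6 of 13 higher and 0 lower (median 0.25), oxidative phosphorylation genes 6 of 18 and 1 (median 0.12), and with the beta-actin covariate the counts were 0 and 0, and 2 and 0. At the deposited scaling they were 3 and 0 in both lists, and with the Gapdh covariate 2 oxidative phosphorylation genes rose and 1 fell. Without the second fresh array 2 oxidative phosphorylation genes rose, and without the second BIO array 3. Glycolysis and hypoxia genes had 3 of 16 higher and 4 lower (median -0.13), or 2 and 3 with the beta-actin covariate, with Pdk1, which keeps pyruvate from the mitochondria, at 713, 787 and 602 with BIO and 3104, 2791 and 2915 in fresh cells (-2.07 ± 0.15, adjusted p = 5.7e-08).

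In the signalling lists, BMP and TGF-beta genes had 5 of 15 higher and 1 lower (median 0.19), against 12 and 1 in DMSO aggregates. Shares over all genes were 21.9% higher and 11.8% lower with BIO, and 18.4% and 14.5% with DMSO. Bmp7, a progenitor survival signal, lay beside fresh with BIO. It read 4461, 4487 and 3487 with BIO, 742, 733 and 844 with DMSO and 4521, 3840 and 3891 in fresh cells (0.02 ± 0.13, adjusted p = 0.941). Inhba, the activin A subunit, was below background with BIO and in fresh cells and read 1503, 1398 and 699 with DMSO. Id1, Id2 and Smad6, BMP targets, rose by 1.63, 0.76 and 0.79, with no passing difference between BIO and DMSO, and Id2 differed by -0.10 with the mean of its probe sets. FGF and MAPK feedback genes had 2 of 12 higher and 4 lower (median -0.16), or 0 and 5 with the beta-actin covariate, with the receptor Fgfr1 at 697, 780 and 755 with BIO and 2359, 2091 and 1985 in fresh cells (-1.52 ± 0.13, adjusted p = 3.27e-07). Dusp6, a phosphatase of ERK, had 4070, 3964 and 3429 with BIO, 9201, 9555 and 10029 with DMSO and 7481, 7578 and 7813 in fresh cells, which puts it past fresh (adjusted p = 2.97e-06).

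Notch pathway genes had 2 of 15 higher and 3 lower (median 0.22), with the target Hey1 at 2229, 2361 and 1550 with BIO, 411, 444 and 465 with DMSO and 937, 681 and 836 in fresh cells (1.31 ± 0.22, adjusted p = 0.000212) and the target Hes1 lower by 0.86 ± 0.18 on the same scale (adjusted p = 0.00169). Neither passed with the beta-actin covariate (1.01 and -1.03), where the Hes1 difference was no smaller in size. The Notch counts were 1 and 2 with that covariate and 2 and 6 at the deposited scaling. Over all genes 21.9% were higher and 11.8% lower. Prostaglandin genes had 1 of 10 higher and 2 lower (median 0.17, and -0.07 at the deposited scaling), or 1 and 0 with the beta-actin covariate. Ptgs2, the inducible cyclooxygenase, had 67.4, 39.7 and 77.5 with BIO, 2438, 3887 and 3695 with DMSO and was below background in fresh cells, at least 1.41-fold higher with BIO (adjusted p = 2.28e-08). Hpgd, which degrades prostaglandins, had 195, 125 and 162 with BIO, 6801, 7391 and 6549 with DMSO and 408, 301 and 321 in fresh cells (-1.10 ± 0.22, adjusted p = 0.000983), and did not pass with the beta-actin covariate (-1.29) or the mean of its probe sets (-0.70). Aryl hydrocarbon receptor targets had 3 of 7 higher and 1 lower (median 0.64), or 2 and 0 with the beta-actin covariate, and interferon genes 1 of 7 and 0 (median 0.83), the riser being Mx1, at least 3.68-fold above fresh (adjusted p = 5.73e-06).

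**Figure D2:**
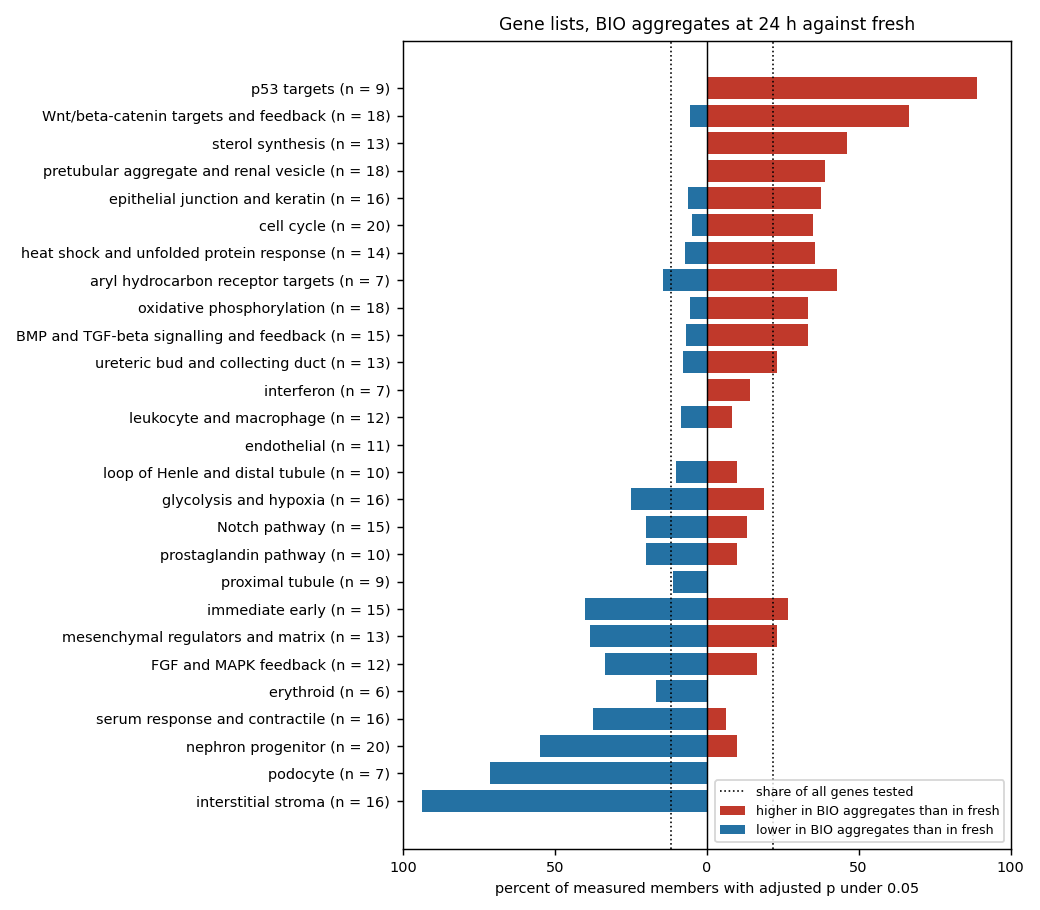
Share of the measured members of each of 27 lists that were higher (right, red) or lower (left, blue) in BIO aggregates than in fresh cells at an adjusted p under 0.05. Dotted lines give the shares over all genes, 21.9% higher and 11.8% lower. Stromal genes (15 of 16 lower) lie at the bottom, and p53 targets (8 of 9 higher) and Wnt targets (12 of 18 higher) at the top.

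**Figure D3:**
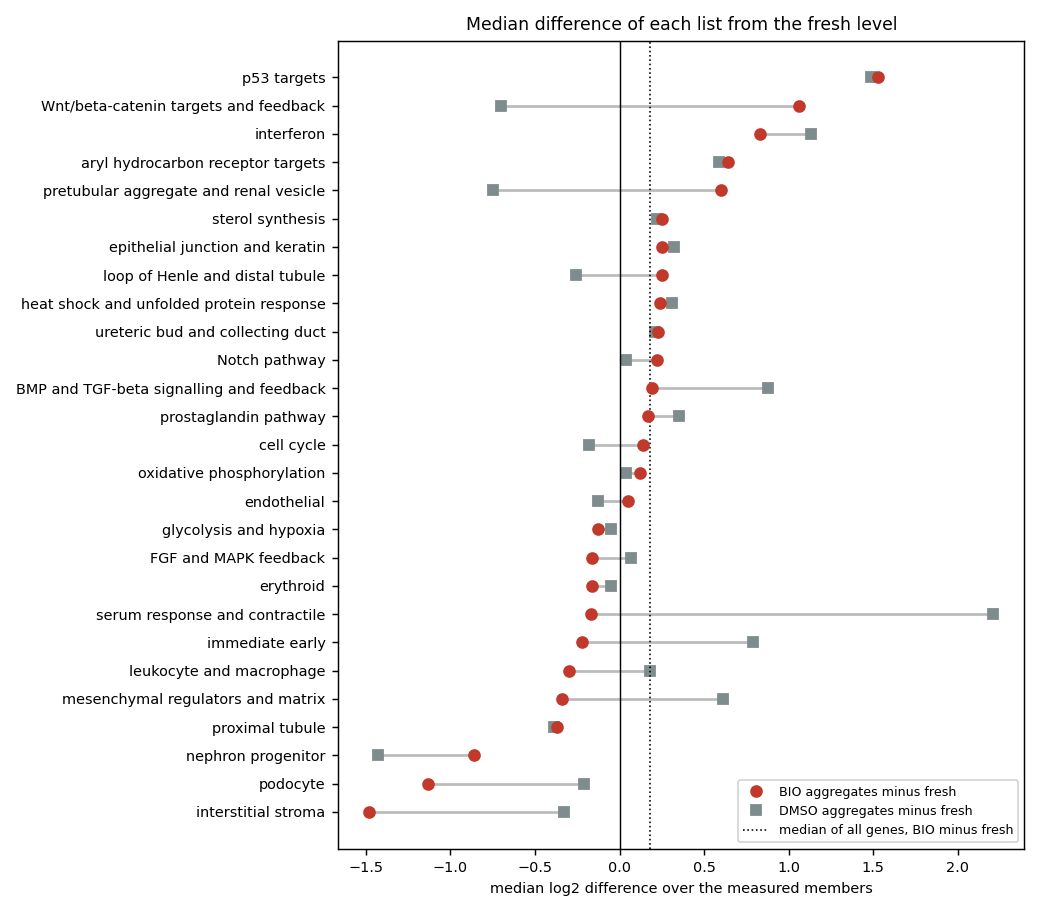
Median log2 difference from fresh over the measured members of each list, in BIO aggregates (red circles) and DMSO aggregates (grey squares). The dotted line is the median of all genes with BIO, 0.18. The contractile list lies at -0.17 with BIO and 2.21 with DMSO, and the p53 list is at 1.53 with BIO, near its DMSO value.

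Over the whole table, 5990 genes differed between DMSO aggregates and fresh cells (32.9%), and 5455 between BIO and DMSO aggregates (30%). In 2733 of the 5990 (45.6%) the BIO difference from DMSO passed in the opposite direction to the DMSO difference from fresh. Of these, 477 went past the fresh level (2.62% of all genes), 1466 were at it (8.06%), 543 stayed short (2.98%) and 247 were undecided (1.36%). A gene was placed at the fresh level when its difference from fresh did not pass and the 95% interval lay within 2-fold either way. In another 2016 genes the DMSO and BIO differences from fresh passed in the same direction with none passing between BIO and DMSO, in 342 BIO went further than DMSO, and 1643 differed with BIO from both fresh and DMSO without a passing difference between DMSO and fresh (9.03%). All 3 comparisons share arrays, so an error in one group mean moves genes between classes, and the counts are a description. With the beta-actin covariate 214 genes were past, 694 at and 77 short of fresh.

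**Figure D4:**
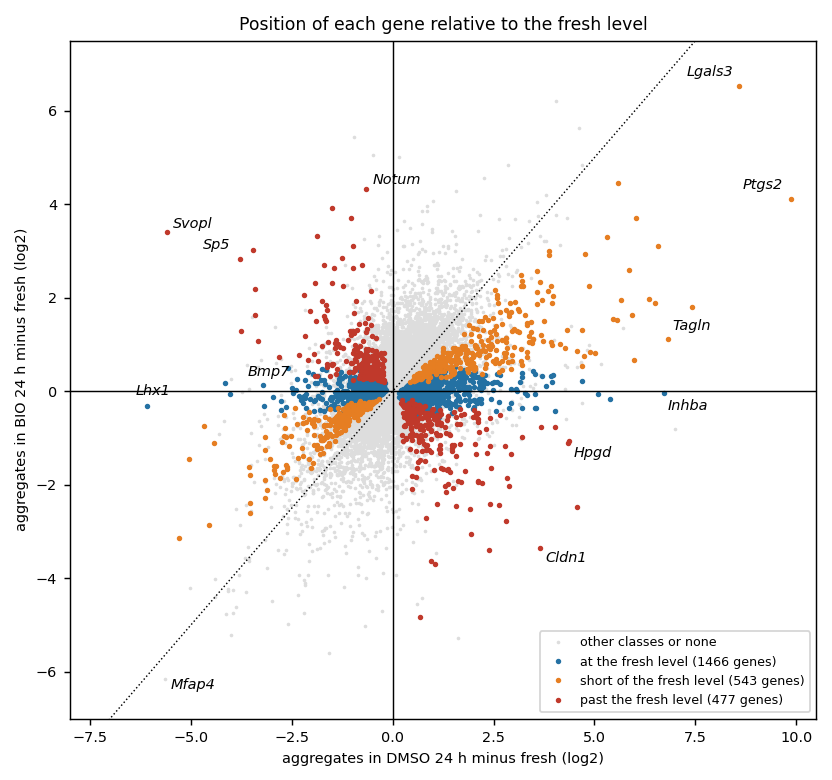
Each gene's log2 difference from fresh in DMSO aggregates (horizontal) and BIO aggregates (vertical), with 477 genes past (red), 1466 at (blue) and 543 short of the fresh level (orange). The dotted line marks equal differences. Both axes share the fresh arrays. Svopl lies far above 0 with BIO and below 0 with DMSO, Inhba and Lhx1 lie on the horizontal line, and Ptgs2 and Tagln between the lines.

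Genes outside the lists were among the most displaced. Of those past fresh, Svopl, a transporter-like gene, had 993, 1437 and 1315 with BIO, below background with DMSO, and 123, 104 and 122 in fresh cells, 10.6-fold above fresh (3.40 ± 0.26, adjusted p = 8.63e-08). At the fresh level, Npr3, the clearance receptor for natriuretic peptides, had 165, 190 and 182 with BIO, 3359, 4172 and 4394 with DMSO and 214, 133 and 127 in fresh cells, where BIO and fresh overlapped (0.22 ± 0.24, adjusted p = 0.513). Klhdc8a was at it too, with 51.8, 98.1 and 40.3 with BIO, 2743, 2586 and 3163 with DMSO and 80.8, 55.8 and 65 in fresh cells. Among genes that stayed short, F3, tissue factor, had 224, 239 and 241 with BIO, 3631, 5018 and 5488 with DMSO and 99.4, 53.2 and 77.8 in fresh cells (1.64 ± 0.29, adjusted p = 0.000428), but did not pass with the beta-actin covariate (1.26). Rgcc, a regulator of the cell cycle, was at least 3.29-fold above fresh (adjusted p = 8.18e-07). Anxa1 and Cryab, an annexin and a small heat shock protein, were 0.67 and 1.81 above fresh, and neither passed without the second fresh array (0.62 and 1.55) or the third BIO array (0.44 and 1.22), nor with either covariate. Anxa1 also did not pass at the deposited scaling (0.40).

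The largest rises were ranked by fitted difference, and 11 of the 12 started from below background in fresh cells. Lgals3, the lectin galectin-3, had 243, 342 and 719 with BIO, 1703, 1477 and 1706 with DMSO and was below background in fresh cells, at least 9.15-fold higher with BIO (adjusted p = 1.63e-07). Htra1, a secreted protease, had 821, 804 and 1184 with BIO and 76.6, 9.27 and 40.5 in fresh cells, at least 17.7-fold higher (adjusted p = 1.46e-06), and its fitted difference, which gives no size below background, was 4.84, or 4.02 without the second fresh array and 5.48 without the first. Pcolce2, which aids collagen processing, had 653, 814 and 638 with BIO and was below background in both other groups, at least 16.3-fold above fresh (adjusted p = 1.22e-06). Hoatz, Jakmip1 and Runx1, the last a haematopoietic transcription factor, were at least 11.1, 9.07 and 7.94-fold above fresh. For Pmaip1, a BH3-only gene of cell death, Cpz, Nupr1, Rasl10a and Pnliprp2 the bounds were 7.68, 4.62, 2, 1.96 and 1.74.

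The largest falls were mostly to below background. Mfap4, a matrix fibril protein, was below background with BIO (10.2, 16.4 and 8.13) and with DMSO, and had 1080, 837 and 714 in fresh cells, at least 20.2-fold lower with BIO (adjusted p = 4.96e-11). Ralyl did the same (at least 7.24-fold, adjusted p = 8.59e-08). Robo2, a Slit receptor that shapes Gdnf expression, had 33.5, 30.2 and 46.8 with BIO, 54.9, 64.3 and 72 with DMSO and 443, 1595 and 1401 in fresh cells, at least 22.4-fold lower (adjusted p = 1.53e-07). Pgm5, a muscle protein of adherens junctions, was below background with BIO (11.4, 14.6 and 14.5), and had 1610, 1786 and 1709 with DMSO and 654, 495 and 533 in fresh cells, at least 13-fold below fresh (adjusted p = 2.57e-05). Fgf1 and the neurexin ligand Nxph1 stayed above background and were 23.3 and 28.2-fold below fresh (adjusted p = 2.23e-07 and 1.62e-09). Ntsr1, Tafa4 and Pde9a were at least 12.9, 7.8 and 8.84-fold below fresh.

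In 3 of the 12 largest falls the BIO arrays lay apart from each other. Malat1, a nuclear long RNA, had 104, 118 and 1203 with BIO, 3162, 2979 and 221 with DMSO and 4818, 9879 and 9859 in fresh cells (-4.98 ± 0.95, adjusted p = 0.000757), and the difference was -6.12 without the third BIO array and -4.36 without the first. With the beta-actin covariate it was 0.45 and did not pass. Gdap10 had 8.52, 7.24 and 76.8 with BIO and 452, 755 and 902 in fresh cells (at least 12.9-fold, adjusted p = 0.000136). Nfix, a nuclear factor I gene, had 5.69, 4.21 and 117 with BIO and 465, 446 and 345 in fresh cells (at least 6.93-fold, adjusted p = 0.000671). Both rest on signal below background, so their fitted differences give no size. These moved to -6.25 in place of -5.21 for Gdap10 and to -6.14 in place of -4.70 for Nfix without the third BIO array, and to -4.07 and -3.89 for Nfix without the first and the second. Gdap10 and Nfix did not pass with the beta-actin covariate, at -0.92 and -0.71.

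The aggregates were also set against cells kept dispersed for 24 h with the same BIO, which share no arrays with them. There 3135 genes differed (17.2%), 2289 higher in aggregates (12.6%) and 846 lower (4.65%), and with the deposited scaling 999 higher and 1060 lower. Lhx1 was the largest of these among the pretubular genes, with 198, 345 and 177 in BIO aggregates and 4.82, 5.4 and 5.58 in dispersed cells, at least 5.38-fold higher (adjusted p = 2.76e-07). Of the 18 pretubular genes 8 were higher and 2 lower in aggregates, and of the 18 Wnt targets 0 were higher and 4 lower. Wnt4 had 4616, 5234 and 4743 in dispersed cells and did not differ by a passing amount (0.01 ± 0.18, adjusted p = 0.97). Six2 had 1609, 1468 and 1548 there (0.22 ± 0.12, adjusted p = 0.24).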

How the data were processed

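The authors deposited linear signal intensities for 45101 probe sets on each of 21 arrays. The values run from 0.1 to 18025.33, and their software and scaling were not given in the sources used here. Values were taken as log2(value + 1) and quantile-normalised. Probe sets with 1 symbol (34945) were used, and those with several (932) or none (9160) and 64 controls were left out. Symbols came from the platform's probe table, and 34742 were brought up to date through RefSeq. Each gene took its probe set with the highest mean signal. The fit used limma 3.58.1 (R 4.3.3) and a mean for each of the 7 groups over 21 arrays (14 residual and 1.62 prior degrees of freedom), Benjamini-Hochberg adjustment over 18193 genes and a threshold of 0.05.

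On simulated data the fit for BIO aggregates against fresh recovered 50% of 50 genes planted at log2 0.5, 90% at 1, 100% at 2 and 86% at -1, with 4 false calls among 167. The planted genes came from the brighter part of the genes, and all others had equal means in every group. Noise was independent between arrays, with no shift in scaling or RNA quality. These rates check the code and do not carry over to the real calls. No pair of arrays shared more than 0.288% of its values. The number of arrays limits the precision.

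Genes named were the 12 largest rises and 12 largest falls without overlap and with the higher group above background, the 5 with the largest BIO minus DMSO difference in each class, 6 fixed genes (Axin2, Lef1, Wnt4, Lhx1, Six2 and Cited1) and up to 4 members of each list. Further list members were named after their values were seen. The comparison, the 27 lists (374 genes, 351 measured) and the members were chosen with earlier results of these data known. Alternatives were other scalings and pseudocounts, dim genes left out, other uses of probe sets, fewer arrays, array weights, a variance trend, the replicate number as a block, 2 control covariates, a 2-fold minimum and leaving out each array. Same-numbered arrays of the 3 groups had deviations correlated between -0.077 and -0.00182, so the numbers were not taken to pair them. Figures were drawn with matplotlib 3.10.9.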

Additional observations from a re-analysis of the deposited data

Results flagged for a closer look

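For 11 genes the difference between BIO and fresh was not the same in aggregates and in dispersed cells, by a limma test of BIO aggregates against BIO dispersed cells, in which fresh cells cancel. The genes tested were the 12 largest rises, the 12 largest falls and the 6 fixed genes. The rises and falls were picked for extreme values on the same BIO aggregate arrays, which favours a difference from dispersed cells. Over all genes 17.2% passed this comparison, so the count of 11 is a description only. Fitted log2 differences, aggregates minus dispersed, were 5.20 for Lhx1, 3.38 for Pnliprp2, 2.17 for Rasl10a and 1.97 for Hoatz, which were higher in aggregates. They were -5.01 for Malat1, -4.78 for Gdap10, -3.69 for Nfix, -2.44 for Robo2, -2.15 for Jakmip1, -1.86 for Htra1 and -1.69 for Runx1, which were lower in aggregates. Where 1 of the groups lay below background the fitted value gives no size. Against background Lhx1 was at least 5.38-fold, Pnliprp2 at least 1.74-fold and Rasl10a at least 1.96-fold higher in aggregates, and Gdap10 was at least 9.62-fold, Robo2 at least 4.53-fold and Nfix at least 3.44-fold lower. Malat1 read 104, 118 and 1203 in aggregates and 8790, 8875 and 6500 in dispersed cells, where all 3 arrays were near the fresh signals of 4818 to 9879. Gdap10 read 494, 627 and 409 and Nfix 243, 198 and 180 in dispersed cells, and in aggregates both were below background on the first and second BIO arrays only. Runx1 was above background in both formats, with 288, 411 and 329 in aggregates and 1041, 1016 and 1235 in dispersed cells. The 3' beta-actin control was 2669 to 5410 on these BIO aggregate arrays and at least 6344 on every other array of the study. Its part in these differences was not tested.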

How the results depend on the processing

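Counts for BIO aggregates against fresh were 1939 changed (1125 higher, 814 lower) with a 2-fold minimum, with 82 genes past, 400 at and 88 short of the fresh level. They were 10980 (6373 and 4607) over every probe set, 2549 higher with the deposited scaling, 3804 (2125 higher) with the Gapdh covariate, where 187 were past and 352 short, and 2215 (1042 and 1173) with the beta-actin covariate, where 214 were past, 694 at and 77 short. With the mean of all probe sets 316 were past. Aggregates against dispersed cells gave 2059 (999 higher) with the deposited scaling. Without 1 array at a time 4887 to 6250 changed, 3057 to 4048 higher and 1830 to 2202 lower, with 334 to 464 past, 1244 to 1415 at and 384 to 523 short. With the replicate number as a block 5883 changed (3824 higher, 2059 lower), 435 past, 1431 at and 511 short, and same-numbered arrays did not deviate together. The directions that turned were Axin2 (-0.04), Tyms (-0.49), Aurka (-0.29), Ddit3 (-0.95) and Id2 (-0.10) with the mean of all probe sets, and Malat1 (0.45) with the beta-actin covariate. Of the 129 named genes, calls were lost in 43 with the beta-actin covariate, 25 with the 2-fold minimum, 18 with the mean of probe sets, 13 with the Gapdh covariate and 7 with the deposited scaling. The cause of these changes was not tested. Signals under 41.8 are not told from background, which held for 3889 genes with BIO and 4368 in fresh cells.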
